A study of Caenorhabditis elegans with 24 samples.

Results

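To ask whether the transcriptional effect of hypomorphic bcl-11 alleles depends on insulin signalling, the difference between bcl-11 mutants and their control was compared between nematodes carrying daf-2(e1370) and nematodes with an intact daf-2 gene. For each gene, the mean of both daf-2;bcl-11 double mutants minus daf-2 was taken as the pooled effect in the daf-2 background, and the mean of both bcl-11 single mutants minus wt as the pooled effect in the wild-type background. The interaction is the first effect minus the second, on the log2 scale. All genes found in both deposited tables with a mean level of at least 3 in each were included, which gave 13131 of the 20549 genes in either table, and all 24 of 24 libraries were used.

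Whole Caenorhabditis elegans hermaphrodites, grown at 20 °C on OP50-1 bacteria, were collected as young adults of the first day. The 6 genotypes had 4 libraries each and were daf-2(e1370);bcl-11(bon125), daf-2(e1370);bcl-11(bon144), daf-2(e1370), bcl-11(bon125), bcl-11(bon144) and wild type (wt, strain N2). Both bcl-11 alleles were made by gene editing, are homozygous viable and are described by the study as hypomorphic, so neither background holds a null bcl-11 mutant. bon125 is a frameshift that leaves the zinc fingers of the C2H2 type intact and inserts extra residues, and bon144 is an in-frame deletion-insertion in a conserved domain. The daf-2 mutation is shared by the double mutants and their control.

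BCL-11 is the nematode homologue of the BCL11 family, zinc finger transcription factors that bind DNA and associate with SWI/SNF chromatin remodelling complexes. DAF-2 is the insulin/IGF-1 receptor. When its signalling is weak, the transcription factor DAF-16/FOXO enters the nucleus and turns on genes for stress resistance and metabolism, so that daf-2 mutants start from another transcriptional state than wt.

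The values are regularized log (rlog) values, a log2 scale on which differences of weakly expressed genes are drawn towards 0. The 12 libraries of each background were normalised apart from the other 12. Effects were therefore taken within a background, and levels in daf-2 and in wt are set side by side with no test. The depth of the libraries is unknown because the files hold no counts. In whole animals, fewer cells of a type and less RNA per cell cannot be told apart. Markers of the main tissues were measured, with 13 of 13 neuronal, 10 of 10 body wall muscle, 9 of 9 intestinal, 11 of 11 germline and 14 of 14 oocyte and eggshell genes among those tested.

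Some libraries stood apart from the others of their background. On the first principal component of the daf-2 background (33.2% of variance), daf-2 replicate 4 was at 40.4 and the other 11 libraries between -14.8 and 10.1. On that of the wild-type background (43.2%), the scores of bcl-11(bon144) were -33.9, 29.5, 61.8 and -11.5 for replicates 1 to 4, and those of the other 8 libraries ran between -16.8 and 4.98. The median standard deviation (SD) between libraries of a genotype was lowest in daf-2;bcl-11(bon144), at 0.134, and highest in bcl-11(bon144), at 0.247. Counts that rest on these libraries are given below with and without them. The bcl-11 transcript itself differed little between mutants and controls, with a pooled effect of 0.02 (SE 0.15) in the daf-2 background and 0.03 (SE 0.15) in the wild-type background. Since the alleles alter the coding sequence, the amount of transcript is no check of the labels.

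A small number of genes had an effect of bcl-11 that differed between the backgrounds. The interaction was called for 7 of 13131 genes (0.0533%), at an adjusted p of limma under 0.05 and a difference above 1.5-fold. All 7 values were positive, so in each of these genes the effect was higher, or less negative, in the daf-2 background. Without the adjustment, 327 genes (2.49%) had a p under 0.05. In 4 of the 7 genes, bcl-11 mutants were lower than wt and this difference was lost in the daf-2 background, which means that the effect with daf-2 was less than 0.5 of the effect without it in size. These were dyf-3, C25G4.7, F25E5.1 and Y55F3AM.11. In the other 3 genes, F56A4.3, irld-53 and Y32B12B.2, a change above 1.5-fold was seen in the daf-2 background and not in the wild-type background, and these are called gained here. In F56A4.3 and irld-53 this class holds for the mean of both alleles and not for bon125 alone. Among the genes called, 0 were kept, with 0.5 or more of the effect in the same direction, and 0 were reversed, with 0.5 or more of it in the opposite direction. With 0.25 as the limit in place of 0.5, dyf-3 would be kept, since 40% of its effect remained.

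The count rested on several single libraries, mostly of the controls, which both alleles share. It was 3, 2 and 3 without wt replicates 1, 2 and 4, and 2, 4 and 3 without daf-2 replicates 2, 3 and 4. A block for the replicate number, which is also the batch number of the labels, gave 4 genes, all among the 7. Without the 4 bcl-11(bon144) libraries 4 genes were called (F25E5.1, Y55F3AM.11, F56A4.3 and irld-53), and without the 8 libraries of both bon144 genotypes 0. The first of these fits sets bon125 alone in the wild-type background against the mean of both alleles in the daf-2 background. It is therefore not the same contrast. F56A4.3 and irld-53 were called in all 24 fits that left out a single library, whereas dyf-3 was called in 13 of them.

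**Figure D1:**
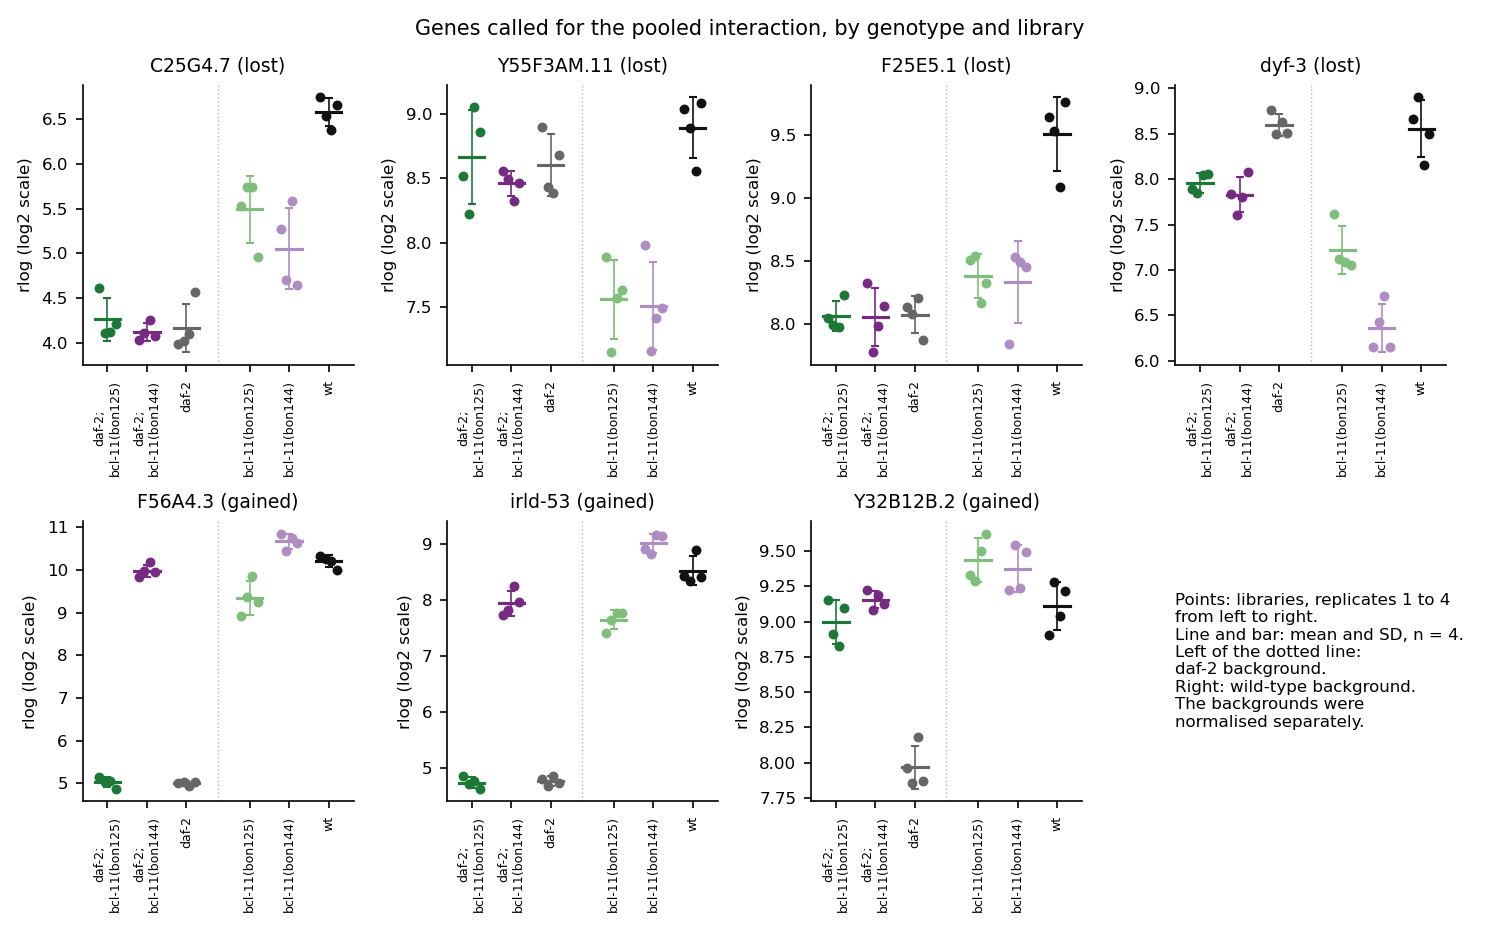
Rlog (log2 scale) of the 7 genes called for the pooled interaction, with 1 panel per gene, 1 point per library and the mean and SD of each genotype (n = 4). Left of the dotted line are the double mutants and daf-2, right of it the single mutants and wt. In C25G4.7, F25E5.1 and Y55F3AM.11 the double mutants overlap daf-2 while the single mutants lie below wt, and in F56A4.3 and irld-53 only daf-2;bcl-11(bon144) lies apart from daf-2.

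Of the 4 lost genes, dyf-3 had the largest effect in the wild-type background. It encodes a protein of intraflagellar transport, needed to build the cilia of sensory neurons (WBGene00001119, chromosome IV, 3396581 to 3399231, minus strand, WBcel235). Its rlog was 7.89, 7.85, 8.04 and 8.05 in daf-2;bcl-11(bon125) animals, 7.83, 7.61, 7.80 and 8.07 in daf-2;bcl-11(bon144), and 8.76, 8.50, 8.63 and 8.51 in daf-2. In the wild-type background it was 7.61, 7.12, 7.09 and 7.05 in bcl-11(bon125) animals, 6.16, 6.43, 6.71 and 6.15 in bcl-11(bon144), and 8.66, 8.90, 8.16 and 8.50 in wt. All mutant libraries lay below all control libraries in both backgrounds, with a smaller gap in the daf-2 background. The pooled effect was -0.71 (SE 0.14) in the daf-2 background, 0.613-fold of daf-2, with an adjusted p of limma of 0.0939. It was -1.77 (SE 0.14, adjusted p 6.72e-08), 0.294-fold of wt, in the wild-type background. The share of the effect that remained with daf-2 was 40%, and the interaction was 1.06 (SE 0.19, adjusted p 0.0244).

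The starting level of dyf-3 was much the same, 8.60 ± 0.12 in daf-2 and 8.56 ± 0.31 in wt (SD, n = 4 each). The interaction was 0.70 with bon125 and 1.42 with bon144, and between 0.56 and 1.46 in the 4 batches. Its adjusted p was 0.0939 with the replicate block, and 0.0514 to 0.106 without any of 11 single libraries (wt replicates 1, 2 and 4, bcl-11(bon125) replicates 2, 3 and 4, daf-2 replicates 2, 3 and 4, and daf-2;bcl-11(bon125) replicates 3 and 4). Of 40 genes of cilia and intraflagellar transport, 17 were expressed highly enough to be tested, and dyf-3 was the 1 member called. The median interaction of these 17 genes was -0.003, as it was over all genes. The list had a low median level, 5.62 in daf-2 and 4.33 in wt, and rlog draws differences of weakly expressed genes towards 0. The median therefore says little about the other members.

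C25G4.7 lies on the same chromosome (WBGene00007734, IV, 12456913 to 12458561, plus strand). Its rlog was 4.61, 4.11, 4.12 and 4.21 in daf-2;bcl-11(bon125) animals, 4.03, 4.11, 4.26 and 4.08 in daf-2;bcl-11(bon144), and 3.98, 4.02, 4.10 and 4.57 in daf-2. It was 5.53, 5.75, 5.75 and 4.96 in bcl-11(bon125) animals, 5.28, 4.70, 5.59 and 4.65 in bcl-11(bon144), and 6.75, 6.54, 6.38 and 6.66 in wt. The 8 single-mutant libraries lay below the 4 wt libraries, and all 12 libraries with daf-2 overlapped at a low level. The pooled effect was 0.02 (SE 0.17) in the daf-2 background and -1.31 (SE 0.17, adjusted p of limma 0.000266) in the wild-type background, and the interaction was 1.33 (SE 0.24, adjusted p 0.0244). The starting level was 4.17 ± 0.27 in daf-2 and 6.58 ± 0.16 in wt, and rlog draws differences at such low levels towards 0. The part of this in the result was not tested. The interaction of C25G4.7 had an adjusted p of 0.054 with the replicate block, and of 0.0602 to 0.105 without wt replicates 1, 2 or 4 or daf-2 replicates 1, 2 or 3.

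F25E5.1 (WBGene00017782, V, 7465884 to 7471288, plus strand) started from a well-expressed level in both controls, 8.08 ± 0.14 in daf-2 and 9.51 ± 0.29 in wt. Its rlog was 8.05, 7.99, 7.98 and 8.23 in daf-2;bcl-11(bon125) animals, 8.32, 7.78, 7.98 and 8.15 in daf-2;bcl-11(bon144), and 8.14, 8.08, 8.21 and 7.88 in daf-2. It was 8.51, 8.54, 8.16 and 8.32 in bcl-11(bon125) animals, 7.85, 8.53, 8.50 and 8.45 in bcl-11(bon144), and 9.64, 9.53, 9.09 and 9.76 in wt. The single mutants lay below wt without overlap, and the double mutants overlapped daf-2. The pooled effect was -0.02 (SE 0.14) in the daf-2 background and -1.15 (SE 0.14, adjusted p of limma 0.000103), 0.451-fold of wt, in the wild-type background. The interaction was 1.13 (SE 0.19, adjusted p 0.0189) and nearly equal for both alleles, 1.11 with bon125 and 1.16 with bon144. The adjusted p of F25E5.1 was 0.054 with the replicate block and 0.0596 to 0.0909 without wt replicates 1, 2 or 4 or daf-2 replicates 2 or 4.

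Y55F3AM.11 (WBGene00021928, IV, 1038667 to 1044387, minus strand) lost its effect from nearly equal starting levels, 8.60 ± 0.24 in daf-2 and 8.90 ± 0.24 in wt. Its rlog was 8.52, 8.23, 9.06 and 8.86 in daf-2;bcl-11(bon125) animals, 8.56, 8.49, 8.33 and 8.47 in daf-2;bcl-11(bon144), and 8.91, 8.43, 8.39 and 8.69 in daf-2. It was 7.89, 7.14, 7.57 and 7.63 in bcl-11(bon125) animals, 7.98, 7.16, 7.41 and 7.49 in bcl-11(bon144), and 9.04, 8.89, 8.56 and 9.09 in wt. Again the single mutants lay below wt without overlap and the double mutants overlapped daf-2. The pooled effect was -0.04 (SE 0.16) in the daf-2 background and -1.36 (SE 0.16, adjusted p of limma 0.000103), 0.389-fold of wt, in the wild-type background. The interaction was 1.32 (SE 0.23, adjusted p 0.0217), with 1.40 for bon125 and 1.25 for bon144, and stayed called with the replicate block (adjusted p 0.0155). It was not called without wt replicates 1, 2 or 4 or daf-2 replicates 2, 3 or 4, where the adjusted p of Y55F3AM.11 lay between 0.0596 and 0.102.

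The largest interaction was that of F56A4.3 (WBGene00018911, V, 2453414 to 2456147, plus strand), a gene that started low in daf-2, at 5.01 ± 0.04, and high in wt, at 10.20 ± 0.14. In daf-2;bcl-11(bon144) its rlog was 9.85, 9.97, 10.18 and 9.95, in daf-2;bcl-11(bon125) 5.15, 5.03, 5.05 and 4.87, and in daf-2 5.02, 5.02, 4.94 and 5.04. It was 8.92, 9.36, 9.86 and 9.25 in bcl-11(bon125) animals, 10.85, 10.44, 10.76 and 10.63 in bcl-11(bon144), and 10.33, 10.27, 10.22 and 10.01 in wt. The daf-2;bcl-11(bon144) libraries thus lay near the level of wt, while daf-2;bcl-11(bon125) overlapped daf-2. The pooled effect of 2.50 in the daf-2 background is the mean of 0.02 with bon125 and 4.98 with bon144, and the effect in the wild-type background was -0.86 with bon125 and 0.47 with bon144. The pooled interaction of F56A4.3 was 2.70 (SE 0.17, adjusted p of limma 1.64e-09), and 0.88 with bon125 (adjusted p 0.382) and 4.52 with bon144 (adjusted p 6.02e-13).

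irld-53, a member of the family with insulin/EGF-receptor L domains, had the same pattern (WBGene00021222, V, 2348215 to 2350325, minus strand). Its rlog was 7.72, 7.82, 8.25 and 7.96 in daf-2;bcl-11(bon144), 4.84, 4.71, 4.76 and 4.62 in daf-2;bcl-11(bon125), and 4.80, 4.67, 4.85 and 4.72 in daf-2. It was 7.40, 7.64, 7.77 and 7.76 in bcl-11(bon125) animals, 8.90, 8.82, 9.16 and 9.15 in bcl-11(bon144), and 8.43, 8.34, 8.90 and 8.41 in wt. Only daf-2;bcl-11(bon144) stood apart from daf-2, while bcl-11(bon125) lay below wt and bcl-11(bon144) overlapped the highest wt library. The interaction was 1.77 (SE 0.16, adjusted p of limma 1.21e-06), with 0.85 for bon125 (adjusted p 0.382) and 2.69 for bon144 (adjusted p 5.17e-09). In irld-53 the effect with bon125 was -0.03 in the daf-2 background and -0.88 in the wild-type background, and with bon144 it was 3.18 in the daf-2 background and 0.49 in the wild-type background. For F56A4.3 and irld-53 the pooled contrast is thus a mean over unlike values. With bon125 both genes had an effect over 1.5-fold in the wild-type background alone. Both lay at a low level in daf-2, where rlog draws differences towards 0, and the part of this was not tested. Without the 4 bcl-11(bon144) libraries both fall in the reversed class. That fit sets bon125 in the wild-type background against the mean of both alleles in the daf-2 background, so the class does not describe bon125. Without the 8 libraries of both bon144 genotypes the adjusted p was 0.777 for F56A4.3 and 0.435 for irld-53. Of 31 genes of the irld family, 4 were tested, and irld-53 was the 1 called.

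Both genes lie in a stretch of chromosome V from 2300000 to 2600000, of which 28 genes were tested. bcl-11 itself lies on the same chromosome, from 6356025 to 6362997. Whether other differences between the strains on this chromosome enter the values was not tested. The interaction was positive in 23 of the 28, with a median of 0.45, which was 0.32 with bon125 and 0.53 with bon144, and 2 of the 28 were called. Over all genes 49.1% were positive and the median was -0.003, but the stretch was drawn around both called genes, so nothing is read from its share. Of these genes, 12 have exactly the values of another gene, among them clec-209 and F56A4.2, so reads of such pairs may have been divided between them. Counted once each, 17 of 22 were positive with a median of 0.42. irld-35, next to F56A4.3, had an interaction of 0.24. Among the genes tested, it comes just before F56A4.2 along the chromosome, as irld-53 comes just before clec-209. Whether F56A4.3 and irld-53 share reads with copies was not tested, and their values are uncertain to that extent.

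Y32B12B.2 (WBGene00012522, V, 16538396 to 16549849, plus strand) was higher in the double mutants of both alleles than in daf-2. Its rlog was 9.15, 8.92, 8.82 and 9.10 in daf-2;bcl-11(bon125) animals, 9.22, 9.08, 9.19 and 9.13 in daf-2;bcl-11(bon144), and 7.96, 7.86, 8.18 and 7.87 in daf-2. It was 9.33, 9.28, 9.50 and 9.62 in bcl-11(bon125) animals, 9.23, 9.54, 9.24 and 9.49 in bcl-11(bon144), and 8.91, 9.28, 9.04 and 9.22 in wt. All double mutants lay above daf-2 without overlap, close to the level of wt. Of the single mutants, bcl-11(bon144) overlapped wt. The bcl-11(bon125) libraries all lay above wt, by a narrow margin (lowest 9.2848, highest wt library 9.2781). The pooled effect was 1.11 (SE 0.10, adjusted p of limma 3.02e-07), 2.16-fold of daf-2, in the daf-2 background and 0.29 (SE 0.10, adjusted p 0.621) in the wild-type background. The interaction was 0.81 (SE 0.14, adjusted p 0.0189), from starting levels of 7.97 ± 0.15 in daf-2 and 9.11 ± 0.17 in wt. The call of Y32B12B.2 was lost without wt replicates 2 or 4 or daf-2 replicates 2 or 4 (adjusted p 0.0596 to 0.0741).

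Taken one allele at a time, the interaction was called for 0 genes with bon125 and for 8 genes (0.0609%) with bon144, each against the same control libraries. At a p under 0.05 before adjustment there were 445 genes (3.39%) with bon125, where no adjusted p of limma was below 0.329, and 357 genes (2.72%) with bon144. With bon125, 0 genes were called with a replicate block, 3 with library weights and 1 without bcl-11(bon125) replicate 3. The 8 genes of bon144 were 6 of those called for the pooled contrast, all but Y55F3AM.11, and F44E7.5 and Y71H2AM.25. The bon144 count was 5 with the replicate block, and 4 or 5 without wt replicates 1, 2 or 4, bcl-11(bon144) replicate 3, daf-2 replicates 1, 2 or 3, or daf-2;bcl-11(bon144) replicates 1 or 4. The difference between the alleles was not tested here.

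**Figure D2:**
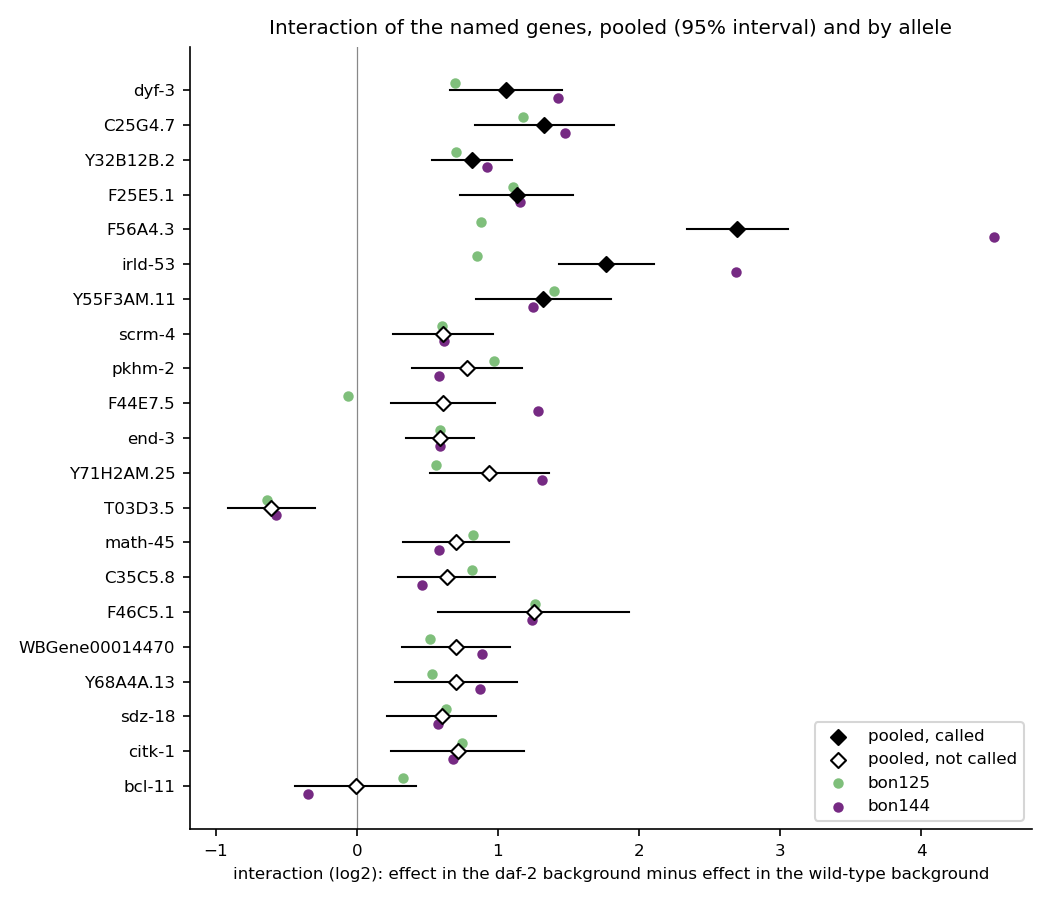
Interaction (log2, effect in the daf-2 background minus effect in the wild-type background) of the 21 named genes, with diamonds for the pooled value and its 95% interval, and circles for each allele. Both alleles lie close together in F25E5.1, end-3 and scrm-4, and far apart in F56A4.3, irld-53 and F44E7.5.

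The same genes were then grouped by the effect in each background taken alone. In the daf-2 background, 3 genes (0.0228%) were called, all higher, and these were the gained genes F56A4.3, irld-53 and Y32B12B.2 (245 genes, 1.87%, before adjustment). The count was 5 without bcl-11(bon144) replicate 3, which enters only the estimate of the spread here, and 2 without the 8 libraries of both bon144 genotypes. In the wild-type background, 7 genes (0.0533%) were called, all lower (817 genes, 6.22%, before adjustment). Besides the 4 genes above, these were pkhm-2, scrm-4 and F44E7.5. All 7 fell in the lost class, with at most 40% of the effect remaining, and 0 were kept. The 40% was that of dyf-3, and the others had at most 11.3%. With the class limit set at 0.25 instead, dyf-3 would be kept, so its label depends on the limit. Since the 7 genes were picked for a large effect in the wild-type background, the smaller effect in the other background is a description of them.

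pkhm-2 (WBGene00011680, X, 15178133 to 15181465) had 10.00, 9.73, 10.21 and 10.55 in daf-2;bcl-11(bon125) animals, 9.86, 9.58, 9.70 and 9.93 in daf-2;bcl-11(bon144), and 10.22, 9.98, 10.23 and 9.75 in daf-2. It had 9.26, 9.42, 9.16 and 9.22 in bcl-11(bon125) animals, 8.89, 9.54, 9.32 and 9.45 in bcl-11(bon144), and 10.28, 10.18, 10.03 and 10.18 in wt. The double mutants overlapped daf-2, and the single mutants lay below wt without overlap. The effect was -0.10 (SE 0.13) in the daf-2 background and -0.88 (SE 0.13, adjusted p of limma 0.00271) in the wild-type background, and the interaction of 0.78 (SE 0.19) did not pass the test (adjusted p 0.439). pkhm-2 overlaps ucr-2.2 on the other strand, and without strand the reads of the pair cannot be told apart.

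scrm-4, of the phospholipid scramblase family (WBGene00008681, I, 11680899 to 11682441), had an effect of -0.07 (SE 0.12) in the daf-2 background, where its starting level was 6.66. In the wild-type background the effect was -0.68 (SE 0.12, adjusted p of limma 0.0203) from a level of 4.99, and the interaction was 0.61 (adjusted p 0.99). The scrm-4 effect was not called without wt replicates 1, 2 or 4 (adjusted p 0.0693 to 0.136), and the gene overlaps kpc-1 on the other strand. F44E7.5 (WBGene00018427, V, 5778817 to 5780922) differed by allele, with an effect in the wild-type background of -0.03 with bon125 and -1.34 with bon144. In the daf-2 background its effect was -0.10 with bon125 and -0.05 with bon144. The interaction of F44E7.5 was thus -0.06 with bon125 (adjusted p 1) and 1.28 with bon144 (adjusted p of limma 0.00868), and its pooled effect in the wild-type background, -0.69 (adjusted p 0.026), was not called with the replicate block (adjusted p 0.077). Nor was it called without any 1 of the wt libraries or without bcl-11(bon125) replicates 2 or 3 (adjusted p 0.0511 to 0.156).

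Among the genes with an interaction above 1.5-fold that did not pass the test, end-3 was nearest to the threshold (WBGene00001311, V, 14014695 to 14015980). It encodes a GATA factor that specifies the endoderm of the embryo. Its rlog was 4.50, 4.32, 4.43 and 4.36 in daf-2;bcl-11(bon125) animals, 4.48, 4.41, 4.28 and 4.35 in daf-2;bcl-11(bon144), and 4.16, 4.13, 4.19 and 4.28 in daf-2. It was 5.20, 5.09, 5.01 and 4.92 in bcl-11(bon125) animals, 5.18, 4.83, 5.08 and 5.03 in bcl-11(bon144), and 5.48, 5.25, 5.34 and 5.65 in wt. The double mutants lay above daf-2 and the single mutants below wt, both without overlap. The effects were small, 0.20 (SE 0.08) in the daf-2 background and -0.39 (SE 0.08) in the wild-type background, and the interaction was 0.59 with an adjusted p of limma of 0.0699. The end-3 value was 0.59 with either allele, and the gene overlaps srh-308. Its level was low in daf-2, where rlog draws differences towards 0, and the part of this was not tested.

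For reading such patterns, all 8 double-mutant libraries lay above all 4 daf-2 libraries in 34 genes (0.259%) and below them in 21 genes (0.16%). All 8 single-mutant libraries lay above all 4 wt libraries in 24 genes (0.183%) and below them in 32 genes (0.244%). Of the 21 named genes, 4 were above daf-2 in this way (Y32B12B.2, end-3, Y71H2AM.25 and sdz-18) and dyf-3 was below. In the wild-type background, 7 were below wt (dyf-3, C25G4.7, F25E5.1, Y55F3AM.11, pkhm-2, scrm-4 and end-3) and T03D3.5 was above. These genes were named for the same contrasts, so nothing is read from the counts.

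T03D3.5 (WBGene00020183, V, 2823806 to 2826835) was the 1 named gene with a negative interaction above 1.5-fold, at -0.61 (SE 0.15, adjusted p of limma 0.47). Its rlog was 5.79 to 6.30 in the 8 double-mutant libraries and 5.94 to 6.10 in daf-2, against 6.58 to 7.06 in the 8 single-mutant libraries and 6.08 to 6.52 in wt. The effect in the wild-type background was 0.58 (adjusted p 0.0205), just under the 1.5-fold limit, and that in the daf-2 background -0.02. The other named genes that did not pass, besides those above, were positive, with interactions of 0.60 for sdz-18, 0.64 for C35C5.8, 0.70 for math-45, Y68A4A.13 and the mitochondrial tRNA gene WBGene00014470, 0.71 for citk-1, 0.94 for Y71H2AM.25 and 1.25 for F46C5.1. The adjusted p of limma of these genes was 0.184 for Y71H2AM.25 and 0.72 to 1 for the rest. C35C5.8 overlaps C35C5.9 on the same strand, which leaves its reads uncertain.

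By size alone, with no test, 141 genes (1.07%) had a pooled effect of 1.5-fold or more in at least 1 background. The wild-type background effect was lost in 68 genes (0.518%), kept in 8 (0.0609%) and reversed in 14 (0.107%), and 51 genes (0.388%) gained an effect in the daf-2 background. Across all genes, the effects in the daf-2 and wild-type backgrounds, which share no library, had a Pearson's r of 0.094 and a Spearman's rho of 0.168, given as a description, since genes are not independent replicates. Only the 7 genes called passed a test of the interaction. That test asks whether the effects differ, not whether their ratio passes a class limit, so the class was tested in none.

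**Figure D3:**
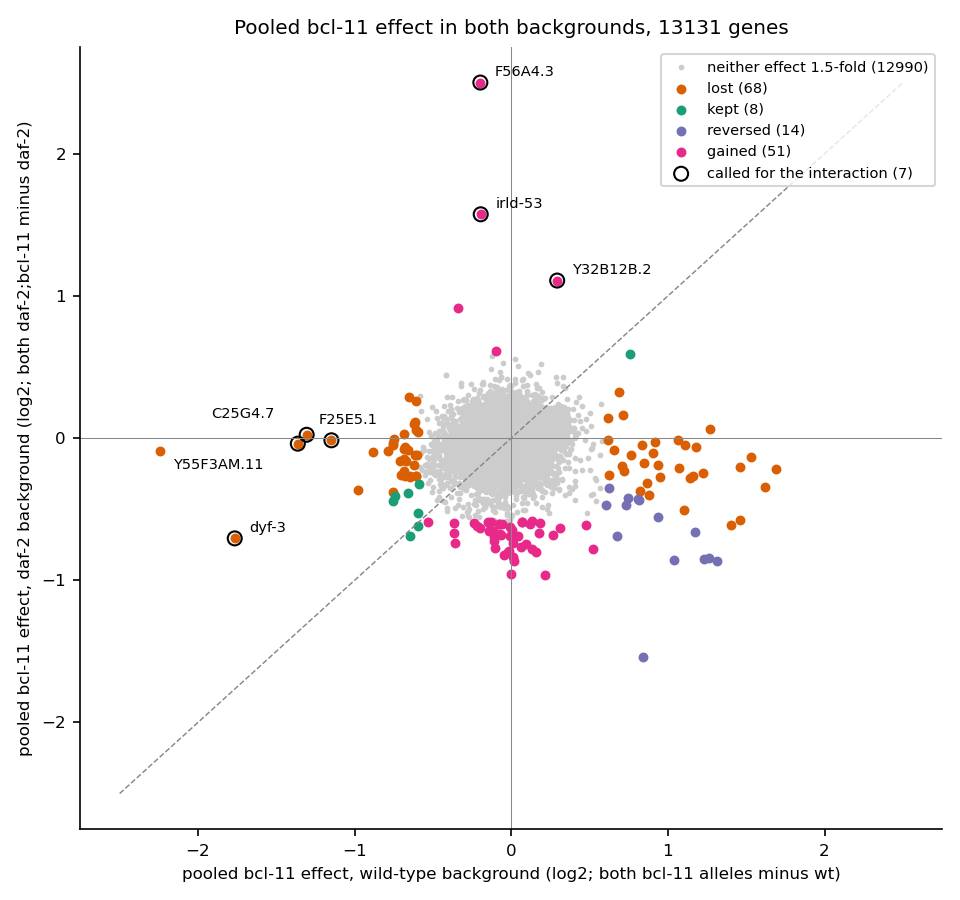
Pooled bcl-11 effect (log2) in the daf-2 background (vertical axis) against that in the wild-type background (horizontal axis) for 13131 genes, coloured by class of size. Equal effects would lie on the dashed line. The 68 lost genes lie on both sides between the horizontal axis and slopes of 0.5, the 14 reversed genes lie in the lower right, and 46 of the 51 gained genes lie below the axis.

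The 8 kept genes were lower in bcl-11 mutants of both backgrounds, except sdc-3. sdc-3, a zinc finger gene of sex determination and dosage compensation, was higher by 0.59 in the daf-2 background (0.69 with bon125, 0.49 with bon144) and by 0.76 in the wild-type background (0.92 with bon125, 0.61 with bon144). The 7 lower ones were Y69H2.3, col-158, W09G12.7, rrn-3.1 (a ribosomal RNA gene), F44E5.4 (of the Hsp70 family), sysm-1 and C16B8.3. In all 7 the effect in the wild-type background was larger with bon144, for example -1.03 with bon144 and -0.16 with bon125 in col-158, a cuticle collagen gene. The kept genes started from high levels, with a median of 11.3 in daf-2 and 11.5 in wt, against 7.92 in daf-2 and 7.74 in wt over all genes. The number kept was 43 without bcl-11(bon144) replicate 3, 36 without wt replicate 1, 19, 14 and 13 without daf-2 replicates 4, 1 and 3, and 5 without wt replicate 3, bcl-11(bon125) replicate 3 or bcl-11(bon144) replicate 1.

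The 68 lost genes were of 2 kinds. In 35 of them bcl-11 single mutants were lower than wt, and bon125 had the same sign as the pooled effect in 34 but reached 1.5-fold in 10. The pooled effect contains bon125 and was used to choose the genes, so this agreement in sign is partly fixed in advance. Over all 13131 genes the alleles had the same sign in the wild-type background in 8321. The median effect of the 35 was -0.41 with bon125 and -1.03 with bon144. These started from a median of 9.79 in daf-2 and 9.76 in wt, and had a median effect of -0.09 in the daf-2 background. Besides the genes called, they held 3 yolk protein genes (vit-3, vit-4 and vit-5), 3 C-type lectin genes (clec-5, clec-41 and clec-85), lea-1, icl-1 and ftn-1. lea-1, of a desiccation-protective protein family, had an effect of -0.009 in the daf-2 background and -0.75 in the wild-type background, where it was -0.13 with bon125 and -1.37 with bon144. icl-1, an enzyme of the glyoxylate cycle, had -0.26 in the daf-2 background and -0.61 in the wild-type background, with -0.32 for bon125 and -0.90 for bon144. The ferritin gene ftn-1 had 0.04 in the daf-2 background and -0.59 in the wild-type background, of which -0.11 was with bon125 and -1.08 with bon144. The largest effect was that of F59D8.3, -0.09 in the daf-2 background and -2.24 in the wild-type background, where it was -1.19 with bon125 and -3.29 with bon144. Its interaction of 2.15 did not pass the test (adjusted p of limma 1).

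In the other 33 lost genes the mean of the single mutants was higher than wt. bon125 had the same sign as the pooled effect in 19 of the 33 and reached 1.5-fold in 1. Of the 33 genes, 23 were cuticle collagen genes of the col family, structural proteins of the exoskeleton that are made in waves around each moult. In the 23 collagen genes the median effect in the wild-type background was 2.26 with bon144 and -0.01 with bon125, and 0 of the 23 reached 1.5-fold with bon125. All 14 reversed genes had the same direction of pooled effect, higher in the wild-type background and lower in the daf-2 background. Of the 14, 10 were col genes. The others were bli-6, also a cuticle collagen gene, grl-16, R12E2.7 and R12E2.14. In col-81 the effect was -0.86 in the daf-2 background and 1.31 in the wild-type background, where it was 0.10 with bon125 and 2.53 with bon144. Over the 14 genes, the median effect in the wild-type background was 1.90 with bon144 and -0.08 with bon125. The alleles had the same sign there in 5 of the 14, and 0 reached 1.5-fold with bon125.

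Reversed genes had the widest difference in starting level, with a median of 8.06 in daf-2 and 5.78 in wt and a higher level in daf-2 in 13 of 14 genes. Among the 68 lost genes the medians were 7.29 in daf-2 and 6.34 in wt, and 41 were higher in daf-2. Levels in the controls also enter the interaction, so a relation between starting level and class is not independent of the class. Of the 14 reversed genes, 10 were col genes. The mean of all 103 col genes tested was 9.83 in daf-2 replicate 4, and 8.14, 8.48 and 8.19 in daf-2 replicates 1 to 3. The high starting level of reversed genes in daf-2 may thus rest partly on that library, which was not tested. The number of reversed genes was 2 without daf-2 replicate 4 and 6 without bcl-11(bon144) replicate 3, but 25 and 26 without daf-2 replicates 1 and 3, and it was 1 without the 8 libraries of both bon144 genotypes. The number lost was over 1.5 times as high without bcl-11(bon144) replicate 1, and 22 without the 4 bcl-11(bon144) libraries.

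**Figure D4:**
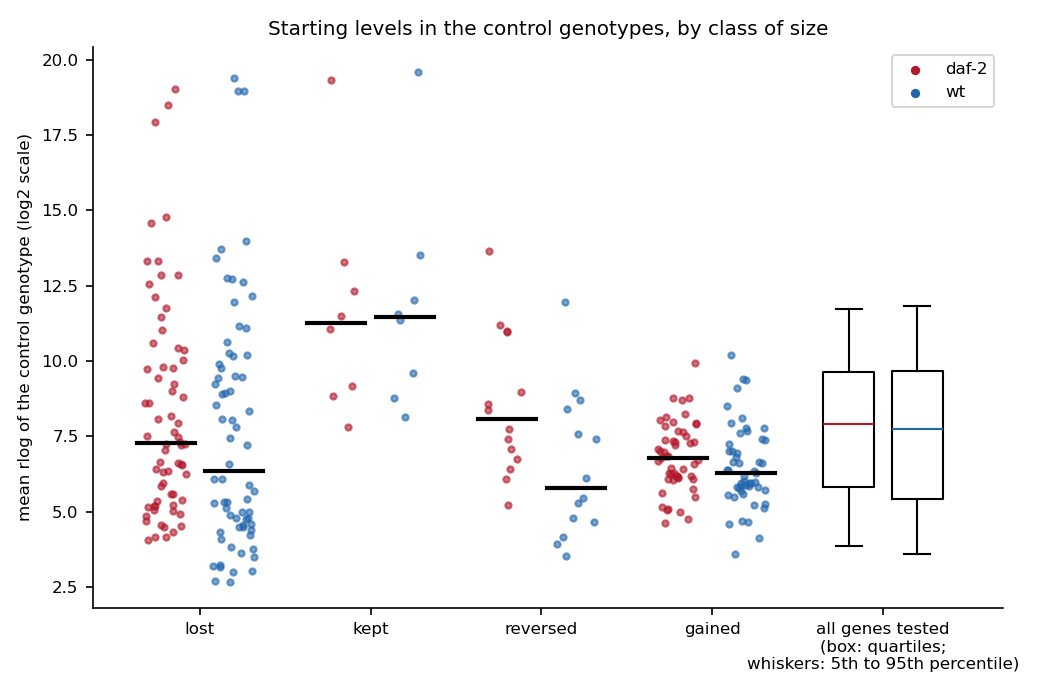
Mean rlog (log2 scale) of each gene in the control genotypes daf-2 (red) and wt (blue), by class of size, with black lines for the median of a class and boxes for all 13131 genes. The backgrounds were normalised separately, so the levels are side by side with no test. The 14 reversed genes had medians of 8.06 in daf-2 and 5.78 in wt.

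Of the 51 gained genes, 46 were lower in the mean of the double mutants than in the mean of daf-2. They held 11 genes of the major sperm protein family (msp), the cytoskeletal and signalling protein of sperm, and 7 of the nspd family of nematode-specific peptides. In the 11 msp genes the median effect was -0.67 in the daf-2 background, whereas in the wild-type background it was -0.64 with bon125 and 0.59 with bon144, so the pooled value near 0 there averages opposite signs. The mean of all 27 msp genes tested was 8.55 in daf-2 replicate 4, and 5.78, 6.47 and 5.33 in daf-2 replicates 1 to 3. The double-mutant libraries, at 5.45 to 6.52, overlapped daf-2 replicates 1 to 3. Over the 51 genes the alleles had the same sign in 49 in the daf-2 background and in 7 in the wild-type background. Over all 13131 genes they did so in 8957 and 8321. The class needs a large mean over the alleles in the first background and a small one in the second. That favours equal signs in the first and opposite signs in the second, so nothing is read from these counts. The 5 gained genes that were higher were F56A4.3, irld-53, Y32B12B.2, F46C5.1 and sdz-5, the last with 0.61 in the daf-2 background and -0.09 in the wild-type background. The number gained was 23 without daf-2 replicate 4, 29 without daf-2;bcl-11(bon144) replicate 3, and 120 and 136 without daf-2 replicates 1 and 3. It was 81 without the 8 libraries of both bon144 genotypes.

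The collagen, sperm and yolk genes were then followed as whole lists. Of 155 col genes in the tables, 103 were tested and 0 were called by limma, also 0 before adjustment, with a positive interaction in 14 and a median of -0.46. Over all genes tested, 49.1% were positive and the median was -0.003. The mean rlog of the 103 genes was 8.15, 8.66, 8.43 and 8.26 in daf-2;bcl-11(bon125) animals, 8.15, 8.55, 8.36 and 8.82 in daf-2;bcl-11(bon144), and 8.14, 8.48, 8.19 and 9.83 in daf-2. It was 7.91, 7.86, 7.51 and 7.56 in bcl-11(bon125) animals, 7.34, 9.28, 10.67 and 7.70 in bcl-11(bon144), and 7.90, 7.82, 7.91 and 7.62 in wt. The list was thus high in daf-2 replicate 4 and in bcl-11(bon144) replicates 2 and 3, which were among the libraries that stood apart on the first principal component. The median interaction was -0.14 with bon125 and -0.79 with bon144, and it was 0.33, -0.54, -0.70 and -1.04 in batches 1 to 4. It was -0.25 without daf-2 replicate 4 and -0.23 without bcl-11(bon144) replicate 3.

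The sperm genes varied in the same libraries. Of 30 msp genes, 27 were tested and 0 were called, also 0 before adjustment, with a positive interaction in 0 and a median of -0.51. Their mean rlog was 5.45 to 6.05 in daf-2;bcl-11(bon125) animals, 5.61 to 6.52 in daf-2;bcl-11(bon144), and 5.78, 6.47, 5.33 and 8.55 in daf-2. It was 4.75, 7.08, 6.16 and 5.17 in bcl-11(bon125) animals, 4.63, 8.29, 11.15 and 4.67 in bcl-11(bon144), and 4.67, 6.36, 7.62 and 6.98 in wt. In daf-2, wt and both single mutants the libraries of 1 genotype covered a wider range than the means of the 6 genotypes. The median of the msp genes was positive, at 0.11 without daf-2 replicate 4, 0.08 without bcl-11(bon144) replicate 3 and 0.15 without the 4 bcl-11(bon144) libraries, and it was 0.23 in batch 1.

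The 6 vit genes, which encode yolk proteins made in the intestine, had a positive interaction in 6 of 6 with a median of 0.50, and 0 were called, also 0 before adjustment. Their mean rlog was 18.00, 18.13, 18.82 and 18.90 in daf-2;bcl-11(bon125) animals, 18.20, 17.97, 17.91 and 18.31 in daf-2;bcl-11(bon144), and 18.04, 18.83, 18.02 and 18.68 in daf-2. It was 19.21, 18.73, 17.89 and 18.18 in bcl-11(bon125) animals, 18.24, 18.30, 18.13 and 18.12 in bcl-11(bon144), and 19.67, 18.55, 18.66 and 18.96 in wt. The bcl-11(bon144) libraries lay below all wt libraries, and those of bcl-11(bon125) overlapped them. The median interaction was 1.04, -0.62, 1.01 and 0.83 in batches 1 to 4, so batch 2 had the opposite sign. It was 0.26 without wt replicate 1.

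**Figure D5:**
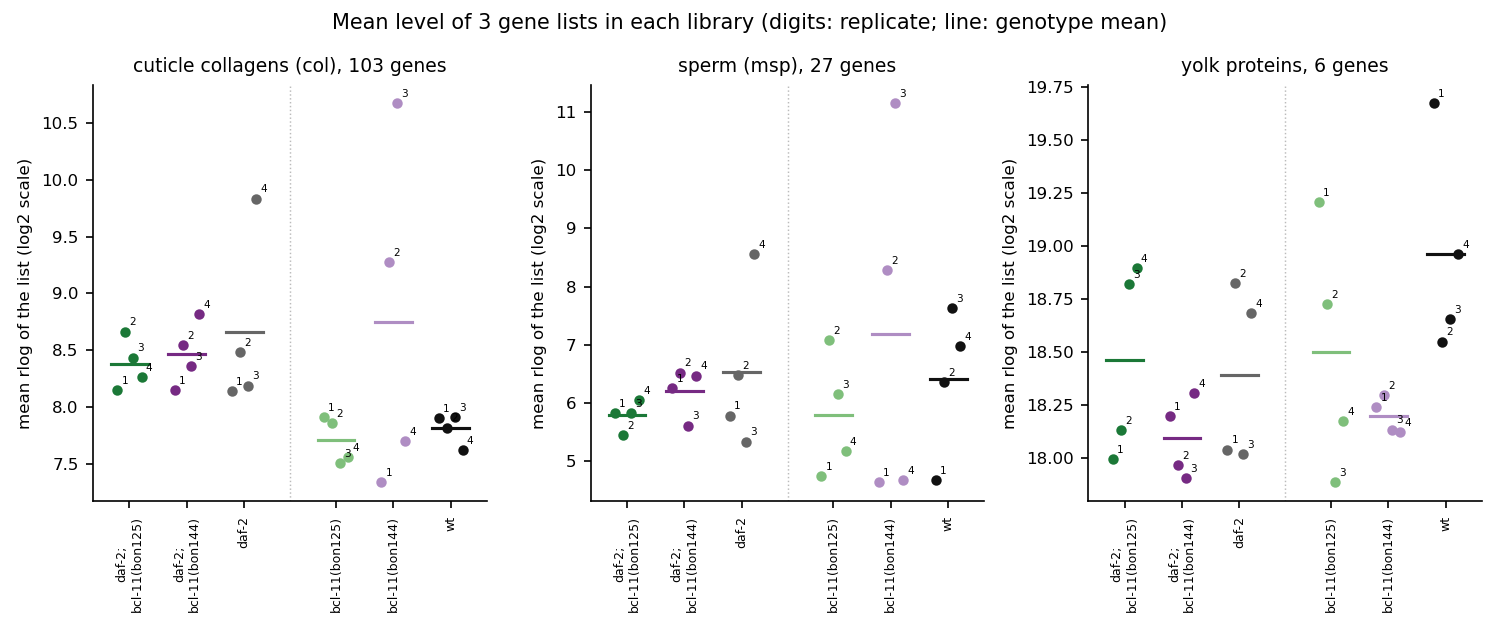
Mean rlog (log2 scale) of the 103 col, 27 msp and 6 vit genes in each library, with the replicate number beside the point and a line for the mean of each genotype. Double mutants and daf-2 are left of the dotted line, single mutants and wt right of it. The col and msp genes are highest in bcl-11(bon144) replicate 3, and in the daf-2 background in daf-2 replicate 4.

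Genes of the pathway that the daf-2 mutation acts on were not called. Among 15 genes of the insulin receptor pathway the interaction was positive in 8 with a median of 0.03. Of 19 genes induced by DAF-16, 17 were tested and the interaction was positive in 13, with a median of 0.17, which was 0.09 with bon125 and 0.37 with bon144, beside 49.1% positive over all genes. The DAF-16 median was 0.45, -0.02, 0.53 and -0.08 in batches 1 to 4, so batches 2 and 4 had the opposite sign. It was 0.07 without batch 1, 0.10 without daf-2 replicate 1 and 0.03 without the 4 bcl-11(bon144) libraries. The starting level of this list was far higher with daf-2, at a mean of 11.23 to 11.73 in the 4 daf-2 libraries and 9.75 to 10.06 in the 4 wt libraries. Of 13 subunits of SWI/SNF complexes, the partners of BCL11 proteins, 0 were called and the median was 0.04.

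In the other lists 0 genes were called for the interaction. By limma at a p under 0.05 before adjustment there was 1 gene induced by DAF-16, 4 C-type lectin genes, 1 lysozyme or saposin gene and 5 nuclear hormone receptor genes, all positive, and 1 negative nuclear hormone receptor gene, beside 2.49% of all genes. The cilium list had bbs-8 (-0.28, p 0.0467 before adjustment, chosen after its value was seen) besides dyf-3, the irld list had irld-53, and the insulin receptor pathway, SWI/SNF and remaining lists had 0. Beside 49.1% of all genes, the interaction was positive in 67.6% of 170 nuclear hormone receptor genes (median 0.04), 53 of 84 C-type lectin genes (0.09), 21 of 33 lysozyme and saposin genes (0.08), 29 of 69 neuropeptide genes (-0.02), 8 of 18 insulin-like peptide genes (-0.02) and 5 of 16 heat shock protein genes (-0.13). Among tissue markers it was positive in 4 of 13 neuronal genes (median -0.05), 3 of 10 body wall muscle genes (-0.12), 4 of 9 intestinal genes (-0.09), 1 of 11 germline genes (-0.05) and 2 of 14 oocyte and eggshell genes (-0.09). The germline and oocyte medians were -0.23 and -0.24 with bon125 and 0.06 and 0.03 with bon144, so the sign differed by allele.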

How the data were processed

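The authors made cDNA libraries by Smart-seq2, which keeps no strand, read them from both ends, demultiplexed with bcl2fastq 2.20 and assigned reads to transcripts of WBcel235 with kallisto (version written 048.0 in the submitters' processing notes). The deposited values are rlog values on a log2 scale, normalised by the authors separately for each background. The tool for this step is not given in the sources used here. Gene names came from the annotations of WBcel235, in which all 20549 identifiers were found. Of the genes tested, 94 have exactly the values of another gene.

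Samples were grouped by genotype as labelled. Nothing in the labels says that replicates came from separate cultures, so p-values measure the spread between these libraries, which may be technical. A model with 6 genotype means was fitted to 24 libraries with limma 3.58.1 in R 4.3.3 (eBayes with trend, two-sided, Benjamini-Hochberg over 13131 genes) and tested on simulated data. The simulation had independent errors, a single SD per gene and no batch, so it does not bear on batch or unequal spread. Intervals cover 95%. A gene was kept, lost or reversed by the ratio of its effects in the daf-2 and wild-type backgrounds (0.5 or more, between, -0.5 or less) where the wild-type effect was at least 1.5-fold, and gained where only the effect in the daf-2 background was. Named genes were bcl-11, all genes called in a pooled contrast, and those of smallest p with an interaction above 1.5-fold, up to 20. The contrast, members and gene lists were chosen with earlier results of these data known.

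Replicate numbers equal the batch of the labels and so pair libraries. Deviations of same-numbered libraries correlated with a mean r of 0.134 within the daf-2 background, 0.19 within the wild-type background and -0.0971 across them. Alternatives were a replicate block, other filters, scalings, weights and variance priors, class limits of 0.25 and 0.75, leaving out each library or batch, and, added after seeing the data, leaving out the bon144 libraries.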

Additional observations from a re-analysis of the deposited data

Results flagged for a closer look

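The effect of bcl-11 differed between the daf-2 and wild-type backgrounds by a test of the difference in 7 genes, with interactions of 1.06 in dyf-3, 1.33 in C25G4.7, 0.81 in Y32B12B.2, 1.13 in F25E5.1, 2.70 in F56A4.3, 1.77 in irld-53 and 1.32 in Y55F3AM.11. With bon125 alone the interaction was 0.88 in F56A4.3 and 0.85 in irld-53, and neither was called. With the replicate block dyf-3, C25G4.7 and F25E5.1 were not called.

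Among 66 groups of 4 libraries checked, of 11 genes, 3 held a library far from the others of its genotype, and chance sets apart about 1 in 20 groups. dyf-3 was 7.61 in bcl-11(bon125) replicate 1, F25E5.1 was 7.85 (7.845 before rounding) in bcl-11(bon144) replicate 1, and irld-53 was 8.90 in wt replicate 3.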

How the results depend on the processing

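The pooled interaction was called for 7 genes, and for 4 with the replicate block, 4 with each library centred on its median, 4 without the 4 bcl-11(bon144) libraries and 0 without the 8 libraries of both bon144 genotypes, a fit on fewer samples. Leaving out 1 library or batch gave 2 to 8. In the wild-type background, library weights gave 12 genes, and leaving out a library or batch 4 to 10. In the daf-2 background, library weights gave 6, a fit to these libraries alone 5, and leaving out a library or batch 3 to 5. The bon125 interaction had 3 genes with library weights and 0 to 1 with a library or batch left out. The bon144 interaction had 5 with the replicate block, 5 with a filter of mean rlog 5, 15 with library weights, and 2 to 10 with a library or batch left out.

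The number lost by size was 22 without the 4 bcl-11(bon144) libraries, 22 without the 8, 44 with a class limit of 0.25, and 37 to 128 with a library or batch left out. The number kept was 5 with quantile normalisation, 40 without the 4, 43 without the 8, 20 and 4 with limits of 0.25 and 0.75, and 5 to 43 with a library or batch left out. The number reversed was 6 with library weights, 4 without the 4, 1 without the 8, 26 and 4 with limits of 0.25 and 0.75, and 2 to 32 with a library or batch left out. The number gained was 23 with library weights, 81 without the 8, and 23 to 136 with a library or batch left out. Among the genes called, those lost numbered 1 with the replicate block, 2 with the block shared by both backgrounds, 2 with centring, 2 without the 4 and 0 without the 8, and 0 to 4 with a library or batch left out. Those gained numbered 0 without the 4 and 0 without the 8, and 2 to 3 with a library or batch left out, and those reversed numbered 2 without the 4, F56A4.3 and irld-53. In the fit without the 4 the backgrounds differ in allele, so its counts do not describe the same contrast.

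The direction turned in few results. F44E7.5 had an interaction of -0.043 without the 4 and -0.0635 without the 8 libraries, and irld-53 an effect in the daf-2 background of -0.027 without the 8. The msp median was 0.075 without bcl-11(bon144) replicate 3, 0.106 without daf-2 replicate 4 and 0.146 without the 4, and -1.03 to 0.106 with a library or batch left out. bcl-11, which was not called, had 0.24 without the 4 and 0.33 without the 8, and -0.23 to 0.20 with a library or batch left out. The cause of these changes was not tested. Besides the counts given and the calls of dyf-3, C25G4.7, F25E5.1 and F44E7.5, the replicate block changed no call. Scaling moved the median of all genes by less than 0.1. Without depths, no limit from counting error can be given.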
